A study of Mus musculus with 14 samples.

Results

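MHC class II presentation genes were followed in sorted mouse peritoneal macrophages given interleukin-4, with and without thioglycollate. The genes were chosen by name: H2-Aa, H2-Ab1 and H2-Eb1, which encode chains of the classical class II molecules, Cd74 (the invariant chain), H2-DMa, H2-DMb1 and H2-DMb2 (subunits of the peptide exchange factor H2-M), H2-Oa and H2-Ob (subunits of its modulator H2-O), and Ciita, the class II transactivator. Array probes were matched to these names through their RefSeq accessions. All 10 genes were measured, on 12 probes, and all 10 passed the filter on dim probes, among 20342 genes tested. H2-Ab1 and H2-Ob had 2 probes each, and the brighter probe stood for the gene.

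The study asked how alternative activation by IL-4 turns out in macrophages resident in the peritoneum and in those elicited there from monocytes by thioglycollate. Cells came from C57BL/6 mice injected into the peritoneum, and every sample was sorted as positive for both CD11b and F4/80 before total RNA was extracted and labelled with Cy3. Mice of the Thio+IL-4c group (4 arrays) received 2 ml of 4% thioglycollate medium together with IL-4c, a complex of 5 µg of IL-4 and 25 µg of 11B11, an antibody to IL-4. Thio mice (3 arrays) received the thioglycollate medium alone, IL-4c mice (4 arrays) the complex alone, and PBS mice (3 arrays) the PBS vehicle. The labels give no age, sex or time after injection, name 2 animal facilities without saying which mouse was kept where, and do not say whether replicates came from separate animals. The p-values therefore measure only the spread between these samples, which may be technical. In such bulk samples fewer cells of a type and less RNA per cell cannot be told apart.

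Class II molecules are heterodimers of an alpha and a beta chain that show peptides from endocytosed protein to CD4 T cells. The invariant chain guides new dimers to endosomes and fills their groove until its remnant is exchanged for peptide with the help of H2-M, an activity that H2-O restrains. Ciita binds no DNA itself and acts on factors assembled at the X and Y boxes, short promoter elements that these genes share. In macrophages class II is inducible, interferon gamma being the best known inducer, whereas dendritic cells and B cells carry it constitutively.

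The sequences in front of the start sites are shown because the X and Y boxes, the elements that Ciita acts through, lie there. Each line is RefSeq sequence that runs 5′ to 3′ on the strand of the gene from 130 to 21 bases before the start site (build GRCm38.p6). The capitals mark matches to the Y box core TGATTGG and to the X box pattern AACNNATG, 2 patterns that were chosen after the promoters had been seen.
H2-Aa (chr17:34287844-34287953, minus strand): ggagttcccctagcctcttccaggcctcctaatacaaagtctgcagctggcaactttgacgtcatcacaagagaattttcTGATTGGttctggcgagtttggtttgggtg
H2-Eb1 (chr17:34305737-34305846, plus strand): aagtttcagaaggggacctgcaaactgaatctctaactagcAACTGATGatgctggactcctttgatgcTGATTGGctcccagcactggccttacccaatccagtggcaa
H2-DMb1 (chr17:34153061-34153170, plus strand): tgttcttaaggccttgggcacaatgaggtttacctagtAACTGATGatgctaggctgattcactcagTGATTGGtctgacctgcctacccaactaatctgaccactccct
H2-DMb2 (chr17:34145119-34145228, plus strand): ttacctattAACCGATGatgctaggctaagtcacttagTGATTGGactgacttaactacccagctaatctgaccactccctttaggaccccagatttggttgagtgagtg
H2-Oa (chr17:34092249-34092358, plus strand): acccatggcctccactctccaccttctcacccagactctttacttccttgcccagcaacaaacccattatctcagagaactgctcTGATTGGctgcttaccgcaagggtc
H2-Ob (chr17:34238775-34238884, plus strand): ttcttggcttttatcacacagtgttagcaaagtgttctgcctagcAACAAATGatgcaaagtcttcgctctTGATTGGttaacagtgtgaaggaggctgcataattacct

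Both patterns were searched on both strands over 300 bases, 250 before to 50 after each start site. H2-Ab1 and Ciita had no such window, and the search of the members left out chromosome 18, where Cd74 lies. Of the 7 member genes for which a window was used, 6 held the Y box core, all on the strand of the gene. The Y box core occurred in 7.82% of the 32851 windows of all genes, and the X box pattern in 8.86%. H2-Eb1, H2-DMb1, H2-DMb2 and H2-Ob held both, as did 0.785% of windows. In these 4 genes the X box pattern began 28, 29, 29 and 26 bases upstream of the Y box core. H2-DMa, a gene with 5 RefSeq transcripts, had windows at 2 start sites and neither pattern in them. Any other start site of H2-DMa was not searched. A match is a run of letters and shows no binding. A missing match does not show that a gene lacks the box, since other forms of the boxes were not searched. The 2 patterns do not overlap each other in any of the windows shown.

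**Figure D1:**
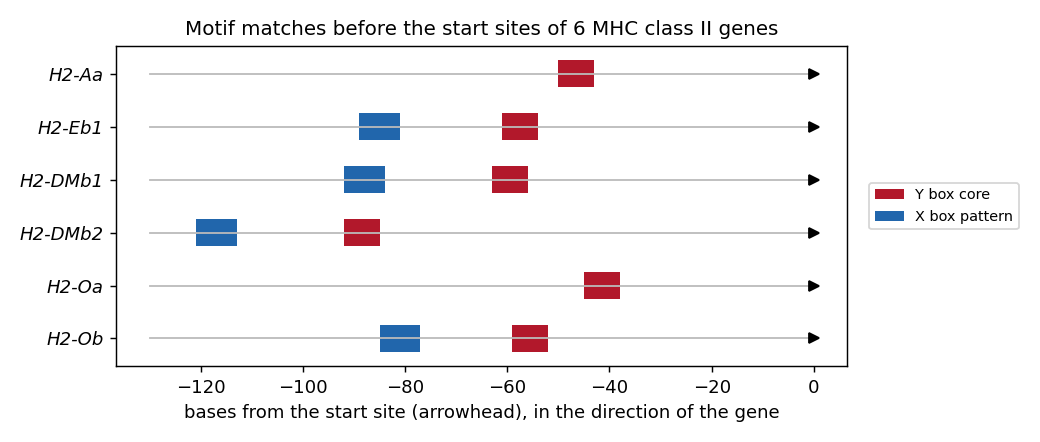
Matches to the Y box core (red) and the X box pattern (blue) in front of 6 class II genes; the horizontal axis is the distance in bases from the start site, and each row is a gene. The Y box core begins between 45 and 92 bases before the start site, and the X box pattern lies further upstream in the 4 genes that have it.

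The 8 H2 genes lie together in the class II region of chromosome 17, from H2-Oa at chr17:34092379-34095234 to H2-Eb1 at chr17:34305867-34316674 (GRCm38.p6). H2-DMa (chr17:34119693-34139101), H2-DMb2 (chr17:34143229-34151553) and H2-DMb1 (chr17:34153191-34160229) are neighbours there, followed by H2-Ob (chr17:34238905-34245908), H2-Ab1 (chr17:34263227-34269418) and H2-Aa (chr17:34282744-34287823). Ciita lies at chr16:10480014-10531064 and Cd74 at chr18:60803849-60812652. H2-DMb1 and H2-DMb2 are close copies of each other. How far their probes respond to the RNA of the other copy was not tested, nor were probe positions within exons or UTRs.

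Levels are log2 values of the processed signal relative to the 75th percentile of the same array, so 0 is the 75th percentile, and a level can be compared between arrays but not between probes. That percentile lay between 2036 and 2537 intensity units on Thio+IL-4c arrays, 2286 and 3571 on Thio arrays, 3051 and 3866 on IL-4c arrays, and 1271 and 1811 on PBS arrays. The share of probes well above background was 79.1% to 95.6% per array. Every member was well above background on every array that gave it a value, and the number of arrays, 3 or 4 per group, limits the precision of these levels. The arrays lay on 2 slides, each scanned at its own time. Slide 1 held the PBS and IL-4c arrays and Thio 1, and slide 2 held Thio 2, Thio 3 and the Thio+IL-4c arrays. Thio 1 thus sat apart from the rest of its group, and its estimated quality weight was 0.0558, the lowest of the 14 arrays. The member calls and list counts given here that changed without it are therefore named. Both sort markers stayed bright in each group, but the level of Adgre1, which encodes F4/80, was lower in elicited cells, at 3.54 ± 0.12 in Thio+IL-4c and 4.73 ± 0.05 in Thio arrays, against 6.27 ± 0.06 in IL-4c and 6.55 ± 0.09 in PBS arrays (SD, n = 4, 3, 4 and 3). Itgam, which encodes CD11b, was at 4.24 ± 0.09 in Thio+IL-4c, 4.14 ± 0.16 in Thio, 5.79 ± 0.07 in IL-4c and 5.96 ± 0.13 in PBS arrays.

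On the probe that stood for each gene, cells given both agents had the highest mean level of every member. For 9 of the 10 members, all but H2-Oa, each Thio+IL-4c array was above each of the 10 other arrays, a pattern found in 10.3% of all genes tested. The dimmer probe of H2-Ob did not show it and had its highest mean in PBS arrays. The lowest mean was in IL-4c arrays for 8 members, in PBS arrays for H2-DMb1 and in Thio arrays for H2-DMa. All IL-4c arrays lay below all 10 other arrays for H2-Eb1, H2-Oa and the brighter probe of H2-Ob, which 6.26% of all genes did. On the dimmer probe of H2-Ob, Thio 1 at -3.95 lay below IL-4c 2 at -3.58.

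Ciita, the regulator, was at a level of 0.18, 0.31, 0.48 and -0.34 in Thio+IL-4c arrays 1 to 4. It was at -0.90 and -1.03 in Thio 2 and Thio 3, while its spot on Thio 1 carried an outlier mark and was left out. It was at -1.83, -2.96, -1.61 and -1.59 in the IL-4c arrays and at -1.78, -1.83 and -1.63 in the PBS arrays. Thio+IL-4c arrays were the highest without overlap and Thio arrays came next without overlap, whereas the IL-4c and PBS arrays overlapped, with IL-4c 2 alone far below the others. Every fit value of Ciita for the Thio group therefore rests on 2 arrays of slide 2.

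H2-Aa, the alpha chain of I-A, reached 5.76, 5.33, 5.75 and 5.18 in Thio+IL-4c arrays. Its level was 3.19, 2.74 and 2.49 in Thio arrays. It was 1.24, 1.49, 2.08 and 1.71 in IL-4c arrays and 2.28, 2.01 and 2.87 in PBS arrays. The doubly treated arrays stood far above the rest, and each neighbouring pair among the other groups overlapped. H2-Eb1, the beta chain of I-E, was at 7.0, 6.80, 6.91 and 6.50 in Thio+IL-4c arrays and at 5.21, 4.87 and 4.33 in Thio arrays. It was at 2.93, 2.90, 3.74 and 3.36 in IL-4c arrays and at 4.86, 4.72 and 5.34 in PBS arrays. Here the order had 3 tiers, with the Thio and PBS arrays overlapping in the middle and the IL-4c arrays below both. H2-Ab1, the beta chain of I-A, ranged over 6.90 to 7.11 in Thio+IL-4c arrays, 5.15 to 6.24 in Thio arrays, 5.00 to 5.70 in IL-4c arrays and 5.61 to 6.45 in PBS arrays. Its second probe spanned 6.68 to 6.71 in Thio+IL-4c, 4.96 to 5.75 in Thio, 4.64 to 5.35 in IL-4c and 5.10 to 6.13 in PBS arrays. Both probes put the Thio+IL-4c arrays on top, with the other 3 groups in overlap.

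Cd74, which encodes the invariant chain, was at 6.89, 6.79, 6.90 and 6.46 in Thio+IL-4c arrays. It was at 5.20, 4.80 and 4.36 in Thio arrays, at 3.81, 3.90, 4.50 and 4.26 in IL-4c arrays and at 4.69, 4.38 and 5.22 in PBS arrays. The Thio, PBS and IL-4c arrays formed an overlapping series below the Thio+IL-4c arrays. Some arrays were high or low in their group for most members. Thio+IL-4c 4 was the lowest of its group for 8 members, IL-4c 3 the highest of its group for 8, Thio 3 the lowest for 7 and PBS 3 the highest for 7.

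H2-DMa, the alpha subunit of H2-M, was at 4.17, 4.08, 4.29 and 3.68 in Thio+IL-4c arrays and at 1.99, 1.96 and 1.87 in Thio arrays. It was at 2.34, 2.56, 2.57 and 2.53 in IL-4c arrays and at 2.89, 2.87 and 2.96 in PBS arrays. No 2 groups overlapped for this gene, and Thio arrays were the lowest. H2-DMb2, a beta subunit, was at 0.01, 0.27, 0.25 and -0.68 in Thio+IL-4c arrays and at -5.03, -3.57 and -3.70 in Thio arrays. It was at -4.68, -5.22, -3.51 and -4.85 in IL-4c arrays and at -1.68, -2.13 and -2.89 in PBS arrays. PBS arrays were second, while Thio and IL-4c arrays overlapped at the bottom. H2-DMb1, the other beta subunit gene, ran from 4.63 to 5.33 in Thio+IL-4c, 2.23 to 2.96 in Thio, 2.81 to 3.09 in IL-4c and 2.36 to 2.62 in PBS arrays. Its IL-4c arrays all lay above its PBS arrays, unlike those of every other member.

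H2-Oa, the alpha subunit of H2-O, was at -0.11, 0.55, 0.31 and -1.43 in Thio+IL-4c arrays and at -3.18, -2.02 and -2.11 in Thio arrays. It was at -4.19, -4.54, -4.06 and -4.34 in IL-4c arrays and at -1.41, -1.68 and -2.53 in PBS arrays. Thio+IL-4c 4 was just below PBS 1, so these groups overlapped, and the IL-4c arrays were the lowest. H2-Ob, the beta subunit, was at 1.79, 1.96, 1.90 and 1.94 in Thio+IL-4c arrays and at -1.51, 1.45 and 1.32 in Thio arrays on its brighter probe. On that probe it was at -1.79, -2.72, -2.02 and -2.41 in IL-4c arrays and at -0.19, -0.78 and -0.97 in PBS arrays. The 6 arrays of slide 2 were thus all above the 8 arrays of slide 1, which include Thio 1. On its dimmer probe H2-Ob was at -1.30, -0.57, -0.93 and -2.22 in Thio+IL-4c arrays and at -3.95, -3.09 and -2.33 in Thio arrays. The same probe gave -3.96, -3.58, -4.01 and -3.78 in IL-4c arrays and -0.51, -0.65 and -1.43 in PBS arrays. The probes disagreed on the Thio group, which was above PBS on 2 of 3 arrays on the brighter probe and below PBS on every array on the dimmer one. They also disagreed on the top group: on the dimmer probe the Thio+IL-4c arrays averaged -1.25 ± 0.71 and overlapped the PBS arrays, which averaged -0.86 ± 0.49 (SD, n = 4 and 3).

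**Figure D2:**
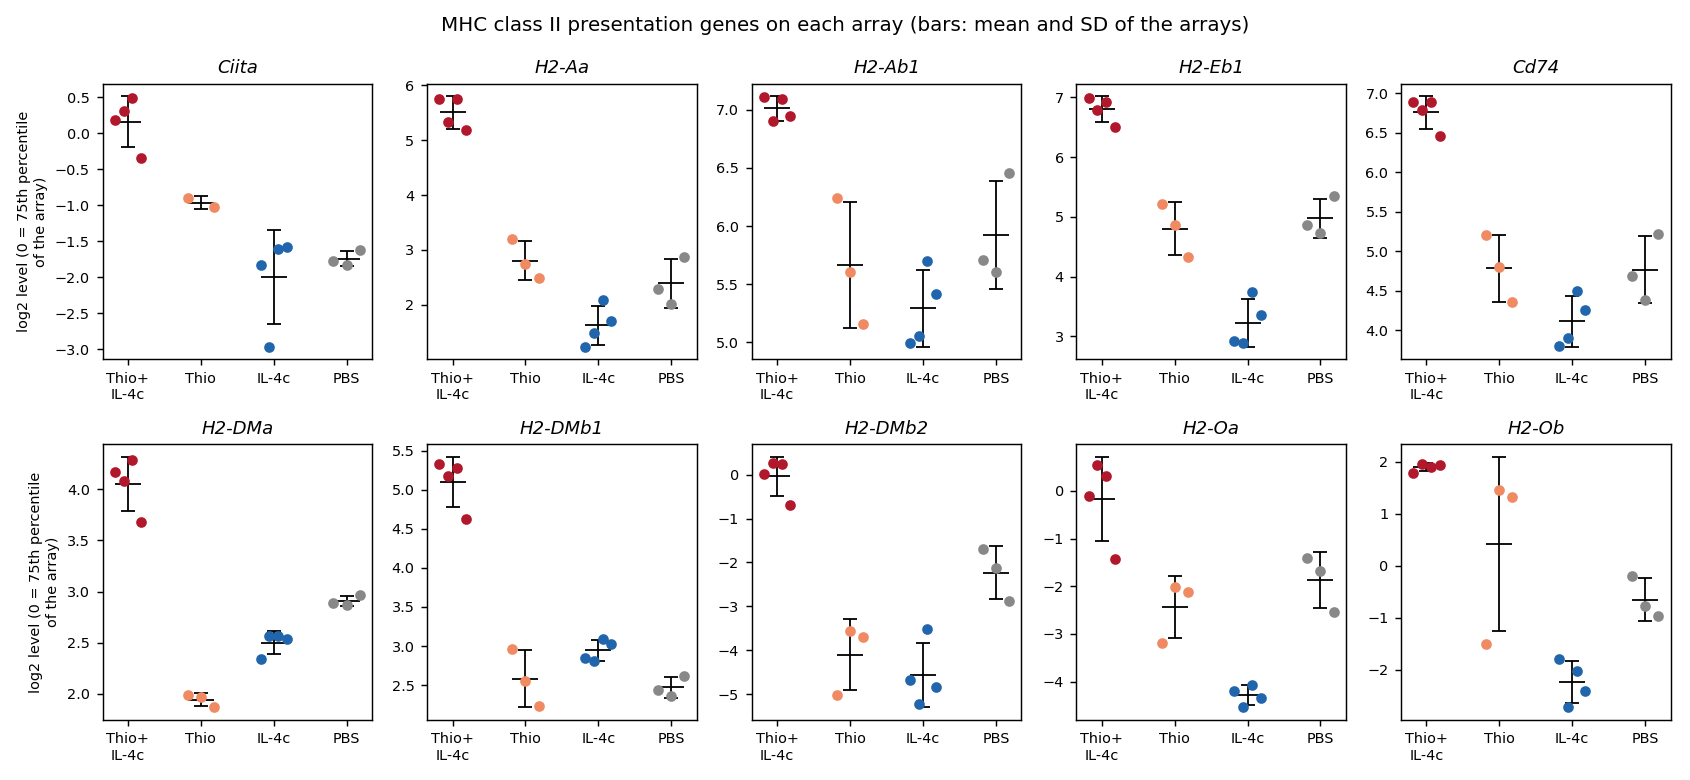
Level of each of the 10 class II genes on every array; the vertical axis is log2 signal relative to the 75th percentile of the array, points are arrays, and bars are the mean and SD of 4 Thio+IL-4c, 3 Thio (2 for Ciita), 4 IL-4c and 3 PBS arrays. H2-Ob is plotted on its brighter probe. On the probes plotted the Thio+IL-4c arrays are the highest for each gene except H2-Oa, where Thio+IL-4c 4 at -1.43 lies below PBS 1 at -1.41.

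**Figure D3:**
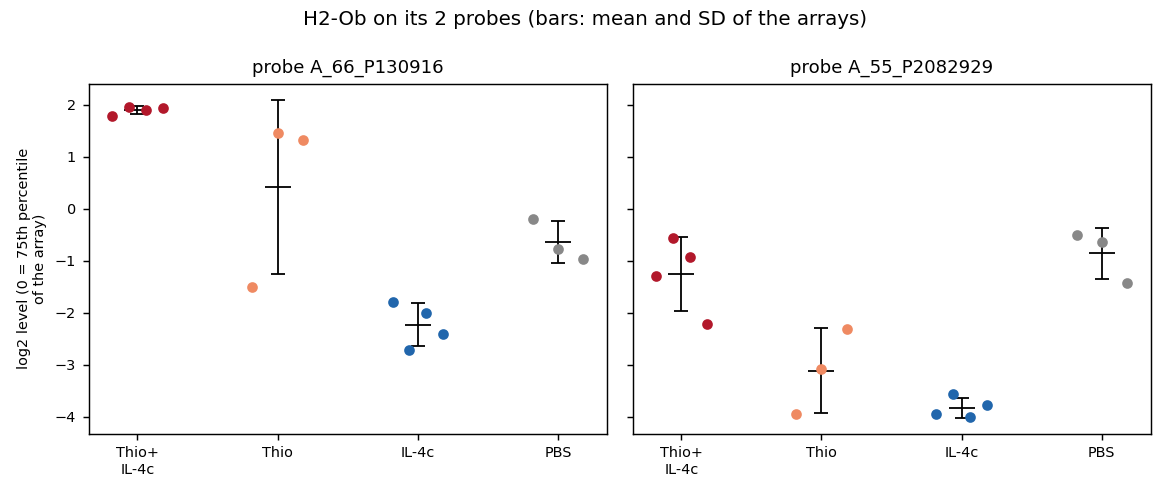
H2-Ob on its brighter probe (left) and its dimmer probe (right), in log2 signal relative to the 75th percentile of the array; points are arrays and bars are the mean and SD of each group. The Thio group spans -1.51 to 1.45 on the brighter probe, and lies at -3.95 to -2.33, below all PBS arrays, on the dimmer one.

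IL-4c given with thioglycollate was set against thioglycollate alone to ask what IL-4 does in elicited macrophages. Here 9 of 10 members rose and none fell, where 16.3% of all genes tested were called higher and 23.0% lower at an adjusted p under 0.05 (limma, Benjamini-Hochberg over all genes). At an unadjusted p under 0.05 limma gave 10 higher and none lower. The median log2 difference of the members was 2.06, against 0.04 over all genes. H2-DMb2 had the largest rise among them, with a log2 difference of 4.06 (SE 0.47, limma adjusted p = 2.9e-05), that is 16.7-fold. H2-Aa rose 6.50-fold, by 2.70 on the log2 scale (SE 0.26, limma adjusted p = 7.5e-06). The other classical chains rose less, H2-Eb1 4.00-fold and H2-Ab1 2.55-fold, and Cd74 rose 3.92-fold. Among the H2-M and H2-O subunits, H2-DMb1 rose 5.72-fold, H2-Oa 4.81-fold and H2-DMa 4.34-fold. Ciita itself rose 2.18-fold, the smallest rise of the 9 that passed (log2 difference 1.12, SE 0.36, limma adjusted p = 0.028). H2-Ob had a log2 difference of 1.47 (SE 0.58) that did not pass, with a limma adjusted p of 0.063, although its dimmer probe gave 1.87 (limma adjusted p = 0.0062 over 54419 probes). Without Thio 1 the same 9 genes passed, with H2-DMb2 at 3.60 and H2-Ab1 at 1.64, and H2-Ob stood at 0.51 (limma adjusted p = 0.14). Within slide 2 alone, where these groups have 4 and 2 arrays, all 10 passed. The call of Ciita was lost in 5 of 24 alternative settings.

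IL-4c was set against PBS to ask the same of resident macrophages. None of the members rose and 5 fell, among a background of 16.8% of genes called higher and 15.4% lower. At an unadjusted p under 0.05 limma gave 1 higher and 8 lower. The median log2 difference of the members was -0.70, against -0.01 over all genes. H2-Oa fell by 2.41 on the log2 scale (SE 0.46, limma adjusted p = 0.0014) and H2-DMb2 fell by 2.33 (SE 0.47, limma adjusted p = 0.0021). H2-Eb1 fell by 1.74 (SE 0.26, limma adjusted p = 0.00025). These 3 falls passed in all 24 alternative settings. The falls of H2-Aa (-0.76, SE 0.26, limma adjusted p = 0.045) and of H2-DMa (-0.41, SE 0.13, limma adjusted p = 0.034) were near the threshold and passed in 12 and 15 of the 24 settings. Cd74 differed by -0.65 (limma adjusted p = 0.073), H2-Ab1 by -0.63 (limma adjusted p = 0.11) and H2-Ob by -1.58 (limma adjusted p = 0.056), none of which passed, while the dimmer probe of H2-Ob gave -2.97 (limma adjusted p = 0.00032 over 54419 probes). Ciita showed -0.25 (SE 0.32, limma adjusted p = 0.65) and H2-DMb1 was the only member with a positive difference, 0.47 (SE 0.20, limma adjusted p = 0.094). Without Thio 1, which enters this comparison only through the shared estimate of the spread, 8 members fell and H2-DMb1 rose.

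The effect of IL-4c differed between elicited and resident cells for all 10 members, as tested by the interaction, the difference Thio+IL-4c minus Thio less the difference IL-4c minus PBS. It was positive for each, while 12.8% of all genes tested were called positive and 19.8% negative. Positive ones made up 39.2% of all interaction calls, and 51.3% with normexp background correction. H2-DMb2 had the largest interaction, 6.39 on the log2 scale (SE 0.67, limma adjusted p = 2.7e-05). H2-Oa followed at 4.68 (SE 0.64, limma adjusted p = 0.0002), then H2-Eb1 at 3.74, H2-Aa at 3.46 and H2-Ob at 3.06. Cd74 stood at 2.62, H2-DMa at 2.53, H2-DMb1 at 2.04 and H2-Ab1 at 1.98. Ciita had the smallest, 1.38 (SE 0.48, limma adjusted p = 0.048), and it passed in 12 of 23 alternative settings, with limma adjusted p from 0.015 to 0.11. The interaction of the other 9 members passed in all 23. Both IL-4c effects can be estimated with slide as a block because each has arrays of both its groups on 1 slide. All 10 interactions passed there, from 1.38 for Ciita to 5.93 for H2-DMb2. For the interaction that fit gave the same values as leaving out Thio 1, so it is no separate check.

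**Figure D4:**
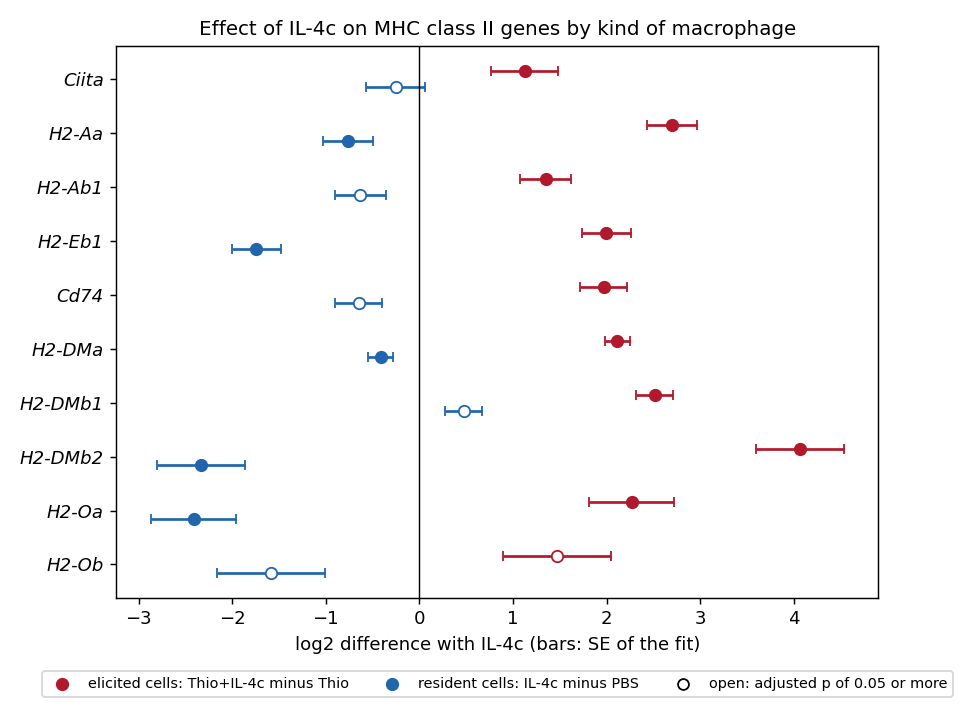
Log2 difference made by IL-4c for each class II gene, in elicited cells (Thio+IL-4c minus Thio, red) and in resident cells (IL-4c minus PBS, blue), with the SE of the fit as bars; open points did not pass an adjusted p under 0.05. All 10 differences in elicited cells are positive, from 1.12 to 4.06, and 9 of 10 in resident cells are negative, from -2.41 to -0.25, with H2-DMb1 at 0.47.

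Thioglycollate without IL-4c was set against PBS to compare elicited with resident macrophages. Class II genes mostly gave no call here: 2 of 10 fell and none rose, where 24.3% of all genes were called lower and 20.2% higher. The median of the members was -0.07, against -0.09 over all genes. At an unadjusted p under 0.05 limma gave the same counts. The genes that fell were both of H2-M, with log2 differences of -1.87 for H2-DMb2 (SE 0.50, limma adjusted p = 0.012) and -0.97 for H2-DMa (SE 0.14, limma adjusted p = 0.00022). Both passed in all 24 alternative settings, with H2-DMb2 at -1.40 without Thio 1 and -2.79 with slide as a block. The classical chains and Cd74 lay between -0.26 and 0.42, with limma adjusted p from 0.24 to 0.95, and of these H2-Ab1 was called with array weights, at -0.60 (limma adjusted p = 0.033). Ciita had a difference of 0.78 (SE 0.38, limma adjusted p = 0.11). The probes of H2-Ob went opposite ways, with 1.07 on the brighter (limma adjusted p = 0.17) and -2.26 on the dimmer (limma adjusted p = 0.0031 over 54419 probes), and the brighter moved to 2.04 without Thio 1 (limma adjusted p = 6.4e-05) and to -0.86 with slide as a block. Within slide 1 this comparison rests on Thio 1 alone.

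Elicited cells given IL-4c were also set against resident cells given IL-4c. All 10 members were higher in Thio+IL-4c than in IL-4c arrays, against 27.9% of all genes called higher and 42.1% lower, and their median was 3.10, against -0.21 over all genes. The log2 differences were 4.53 for H2-DMb2, 4.13 for H2-Ob, 4.11 for H2-Oa, 3.88 for H2-Aa and 3.57 for H2-Eb1. Cd74 followed at 2.64, Ciita at 2.16, H2-DMb1 at 2.15, H2-Ab1 at 1.72 and H2-DMa at 1.56, with limma adjusted p from 1.7e-07 to 0.00012. The dimmer probe of H2-Ob gave 2.58 (limma adjusted p = 0.00021 over 54419 probes). The Thio+IL-4c and IL-4c groups share no slide. Slide and group are thus told apart only through Thio 1 against Thio 2 and Thio 3, and Thio 1 had the lowest quality weight, 0.0558. With slide as a block 8 members still passed. H2-Ob lost its call there at 1.23 (limma adjusted p = 0.051), and Ciita could not be estimated because its Thio 1 spot was left out. In that fit H2-DMb2 was at 3.14 and H2-Oa at 3.0, lower than before, and H2-Aa at 4.45, H2-Eb1 at 4.19 and Cd74 at 3.26, higher than before.

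Genes around the class II pathway moved both ways. The counts of such lists stand beside 16.3% of all genes called higher and 23.0% lower in Thio+IL-4c versus Thio, and 16.8% higher and 15.4% lower in IL-4c versus PBS. They were also taken without Thio 1, an alternative chosen after the data were seen. Of 16 genes for transcription factors and cofactors that act on class II promoters or on Ciita, 4 rose and 6 fell in Thio+IL-4c versus Thio, and in IL-4c versus PBS 4 fell and none rose (5 and 2 at an unadjusted p under 0.05, limma). Without Thio 1 there were 5 that fell in Thio+IL-4c versus Thio, and 3 that rose in IL-4c versus PBS. Irf8, a myeloid transcription factor, fell by 6.23 on the log2 scale in IL-4c versus PBS (SE 0.21, limma adjusted p = 3.7e-09), with a level of -2.39 ± 0.40 in IL-4c and 3.85 ± 0.09 in PBS arrays (SD, n = 4 and 3). It fell by 3.04 in Thio+IL-4c versus Thio, where its level was 1.21 ± 0.11 and 4.26 ± 0.35 (SD, n = 4 and 3), so there it moved against the class II genes. Irf4, a related factor that IL-4 is known to induce in macrophages, rose by 2.91 in Thio+IL-4c versus Thio (SE 0.12, limma adjusted p = 1.3e-08) and had 0.08 in IL-4c versus PBS (limma adjusted p = 0.70). Irf4 fell by 2.62 in Thio versus PBS, and its levels were 1.72 ± 0.17 in Thio+IL-4c, -1.19 ± 0.08 in Thio, 1.52 ± 0.16 in IL-4c and 1.44 ± 0.10 in PBS arrays. Thio arrays alone were low for this gene. Spi1, which encodes PU.1, was called in Thio+IL-4c versus IL-4c, at -0.50, and without Thio 1 also in Thio versus PBS, at -0.60. Crebbp rose by 0.97 and Ep300 fell by 1.16 in Thio+IL-4c versus Thio, both being coactivator genes. Rfx5, part of the complex at the X box, fell by 1.43 in Thio+IL-4c versus IL-4c (limma adjusted p = 0.029).

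The 9 genes of the interferon gamma axis included 3 that rose and 2 that fell in Thio+IL-4c versus Thio, and 1 that rose and 4 that fell in IL-4c versus PBS. Without Thio 1 only 1 of the 9 rose in Thio+IL-4c versus Thio. Irf1, a transcription factor that interferon gamma induces, fell by 1.25 in IL-4c versus PBS and gave -0.11 in Thio+IL-4c versus Thio (limma adjusted p = 0.70). Socs1, a feedback inhibitor of cytokine signalling, rose by 2.89 in IL-4c versus PBS and by 2.15 in Thio+IL-4c versus Thio, but without Thio 1 the second stood at 1.025 (limma adjusted p = 0.057). The interaction of Irf1 was positive, 1.13 (limma adjusted p = 0.020). Irf2, a related factor, rose by 0.998 in Thio+IL-4c versus Thio (limma adjusted p = 0.00065).

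Genes that process antigen for class II were counted as 2 of 16 higher and 8 lower in Thio+IL-4c versus Thio, and 3 higher and 7 lower in IL-4c versus PBS. Without Thio 1 there were 3 higher in Thio+IL-4c versus Thio and 9 lower in IL-4c versus PBS. Ifi30, the thiol reductase of the endosome, rose with IL-4c in both, by 0.79 in elicited and 1.41 in resident cells. Ctss, the protease that trims the invariant chain, fell by 1.01 in resident cells and had -0.21 in elicited cells (limma adjusted p = 0.34). Cd82, a tetraspanin, fell by 1.98 and Asah1, a lysosomal ceramidase, fell by 1.53 in Thio+IL-4c versus Thio. Marchf1, a ubiquitin ligase that removes class II from the surface, fell by 2.86 in Thio versus PBS and by 1.99 in Thio+IL-4c versus IL-4c. Genes of the class I pathway moved both ways with IL-4c, with 5 of 16 higher and 4 lower in Thio+IL-4c versus Thio, and 6 higher and 6 lower in IL-4c versus PBS. Without Thio 1 there were 7 higher and 2 lower in Thio+IL-4c versus Thio. Tap1, a peptide transporter, rose by 0.95 in elicited cells and H2-D1, a class I heavy chain, fell by 1.24 in resident cells. In the elicited cells 12 of the 16 were lower and none higher than in resident cells, both without IL-4c and with it, where 24.3% and 42.1% of all genes were called lower, and none was higher at an unadjusted p under 0.05 (limma). Leaving out Thio 1 gave 14 lower in Thio versus PBS. The other class II locus with a probe, H2-Eb2, was called in none of the 5 comparisons by limma, nor at an unadjusted p under 0.05, and its levels spanned -3.67 to -2.82 in Thio+IL-4c arrays and -3.99 to -1.47 in PBS arrays.

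Cell types other than macrophages that carry class II were checked through marker lists, given as sums of linear levels in multiples of the 75th percentile. The 13 B cell markers summed to 4.14 to 4.44 in Thio+IL-4c, 6.80 to 8.01 in Thio, 4.09 to 4.67 in IL-4c and 12.1 to 21.1 in PBS arrays. In IL-4c versus PBS 7 of the 13 fell and none rose, beside the fall of 5 class II genes, and none rose at an unadjusted p under 0.05 (limma). Among them Ms4a1 had a log2 difference of -3.72 and Cd79b of -3.50. Within the PBS group the sum was 21.1, 17.2 and 12.1 in arrays 1 to 3, and H2-DMb2, H2-Oa and H2-Ob were likewise lowest in PBS 3, whereas H2-Aa, H2-Ab1, H2-Eb1 and Cd74 were highest there. In Thio+IL-4c versus Thio 2 of the 13 rose and 4 fell. Without Thio 1 there were 3 that fell in Thio+IL-4c versus Thio, and 10 that fell in IL-4c versus PBS. The part of B cell RNA in these results was not tested.

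The 13 measured dendritic cell markers summed to 62.4 to 80.1 in Thio+IL-4c and 51.3 to 66.9 in Thio arrays, against 25.2 to 26.2 in IL-4c and 20.8 to 23.7 in PBS arrays. In Thio+IL-4c versus Thio 4 rose and 2 fell, and leaving out Thio 1 gave 6 that rose and 2 that fell. Batf3, a factor of dendritic cell development, rose by 2.71 there. Cd209a, a lectin also listed for small peritoneal macrophages, rose by 2.62, while Sirpa fell by 1.53 and Xcr1 fell by 1.51. In Thio versus PBS 4 of the 13 were higher and 4 lower, or 6 and 4 without Thio 1. In Thio+IL-4c versus IL-4c 6 were higher and 2 lower, or 6 and 4 without Thio 1. The median log2 difference of the list was 0.3473 in the first and -0.005587 in the second. Itgax, which encodes CD11c, was higher by 6.59 in Thio versus PBS and by 8.71 in Thio+IL-4c versus IL-4c. Cd209a was lower in both, with log2 differences of -3.803 and -2.352. The 6 markers of small peritoneal macrophages, the monocyte-derived subset rich in class II, were summed likewise. Their sum was 225 to 264 in Thio+IL-4c, 22.0 to 25.2 in Thio, 195 to 231 in IL-4c and 124 to 144 in PBS arrays. Such a sum follows its brightest genes and does not count cells. Retnla rose by 4.03 in Thio+IL-4c versus Thio, and Clec10a by 2.34 in IL-4c versus PBS. In Thio+IL-4c versus IL-4c 2 of the 6 were higher, Ccr2 by 7.64 and Cd226 by 6.44. There 1 was lower, Cd209a by 2.35. All 6 rose in Thio+IL-4c versus Thio, from 1.88 to 4.90 on the log2 scale. Irf4, which IL-4 is known to induce in macrophages, is on this list. In Thio versus PBS 2 of the 6 were higher and 4 lower. In IL-4c versus PBS 3 rose and 2 fell. There Ccr2 had -3.66 and Cd226, whose spot cleared background in 1 of 4 IL-4c arrays, had -3.72. The 8 eosinophil markers summed to 181 to 236 in Thio+IL-4c, 4.81 to 5.81 in Thio, 7.45 to 10.5 in IL-4c and 3.83 to 5.05 in PBS arrays. Ear1 and Ear2 made most of that sum, with rises of 6.68 and 5.68 in Thio+IL-4c versus Thio, while Siglecf fell by 0.53 and Epx was not above background in the PBS group. The 11 T and NK cell markers summed to 15.1 to 18.2 in Thio+IL-4c, 13.1 to 15.5 in Thio, 11.0 to 12.7 in IL-4c and 14.8 to 17.1 in PBS arrays, with Cd3g not above background in the IL-4c group. The 9 markers of large peritoneal macrophages, the resident population low in class II, had a median sum of 13.4 in Thio+IL-4c, 10.5 in Thio, 276 in IL-4c and 794 in PBS arrays. The part of these cell types in the class II results was not tested.

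**Figure D5:**
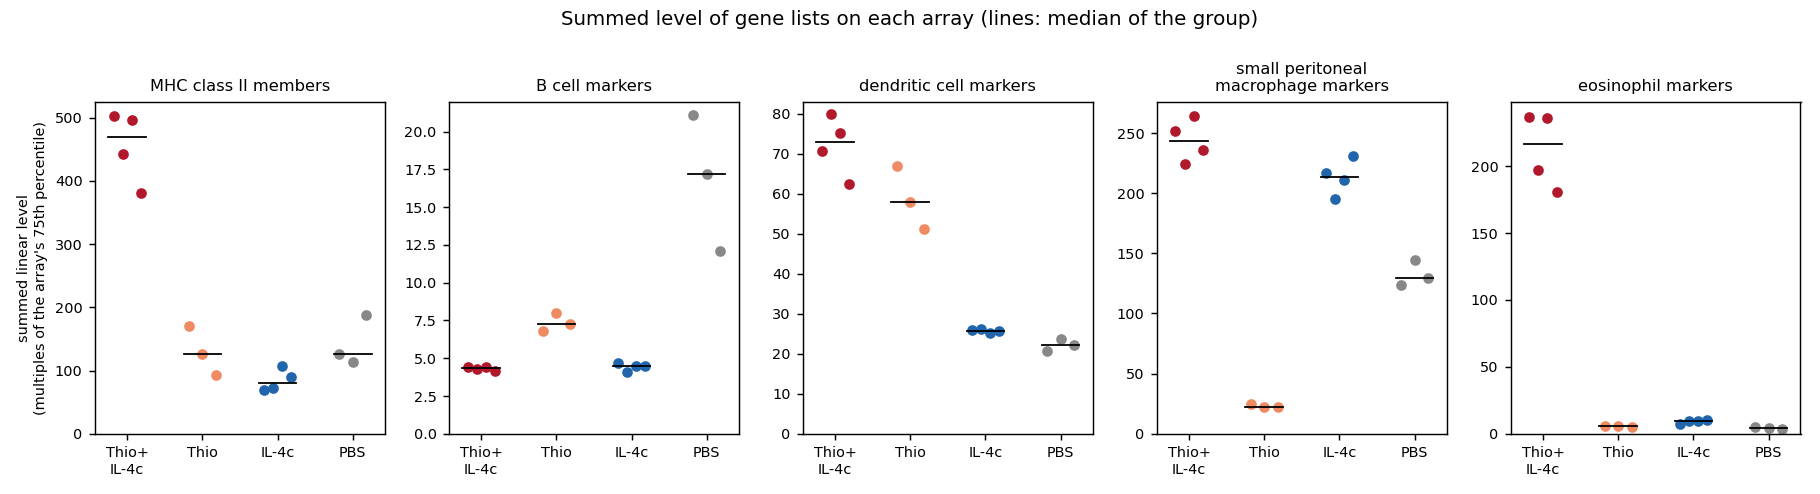
Summed linear level of 5 gene lists on each array, in multiples of the 75th percentile of that array; points are arrays and lines are group medians. The class II members sum to 381 to 503 in Thio+IL-4c arrays, against 93.4 to 171 in Thio, 68.8 to 107 in IL-4c and 114 to 188 in PBS arrays, and the B cell markers are highest in the PBS arrays at 12.1 to 21.1.

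The genes whose profile over the 14 arrays lay nearest to the mean of H2-Aa, H2-Ab1, H2-Eb1 and Cd74 were looked for among 20150 other genes, by the root mean square difference after centring each gene. That mean profile had a root mean square of 1.18 itself. The 5 smallest differences were those of Gm10494, Olfr1186, S100a7l2, 4930447N08Rik and Wdfy1. The first 4 were well above background on only 3 or 4 of the 14 arrays, so their profiles are mostly background signal and measure no likeness. Wdfy1, at 0.428, was well above background on all 14 arrays. Nearest to Ciita over 13 arrays were Olfr522 at 0.316, Nipal1 at 0.341, Dlk1 at 0.342, Bmx at 0.365 and Etv3 at 0.370, with the Ciita profile at 0.982, and these 5 were well above background on all 14 arrays.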

How the data were processed

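One-colour Agilent arrays measured total RNA of sorted peritoneal macrophages in 14 samples, grouped by the treatment label of each. The authors deposited scanner tables of linear spot intensities, 1 for each array, extracted with Feature Extraction 11.0.1.1 per the file headers (11.5 per the submitters' processing notes, which also name limma). They also deposited a table of processed log2 values with a median of 9.23 on every array. Its columns correlated with log2 scanner median signals at r = 0.988 to 0.994, with slopes of 0.987 to 0.997 over the spots above the 75th percentile, so the base is 2. How its background was corrected is not given in the sources used.

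From the deposited intensities, log2 of the background-subtracted processed signal was taken relative to each array's 75th percentile. Of 62976 spots, 3671 control spots and 113 to 165 marked as outliers per array were left out. No spot was saturated. Spots of a probe were averaged, probes well above background on at least 3 arrays were kept, and the brightest probe stood for a gene. Names came from RefSeq accessions (27235 of 55681 probes matched). Group means were fitted over all 14 arrays with limma 3.58.1 in R 4.3.3, and a two-sided p under 0.05 after Benjamini-Hochberg adjustment over all genes made a call. The 5 comparisons share groups, so they are not independent. The fit was tried on simulated data, and its pass condition was loosened after the first result had missed it.

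Alternatives left out each array, used slide or replicate number as a block, 1 slide alone, quantile normalization, normexp with offset 50, the authors' table, other filters, the mean of a gene's probes, and array weights. For IL-4c versus PBS, Thio+IL-4c versus Thio and the interaction, slide as a block gave the same values as leaving out Thio 1. The counts of settings hold both. No mean signal column was given, so normexp used the median signal. Replicate numbers did not pair the samples: of 19 same-number pairs 4 had a correlation of deviations over 0.1, from -0.446 to 0.368.

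All 10 members were named in every comparison. From 12 other lists the rule took, per comparison, the 2 most increased and the 2 most decreased called genes, and 10 index genes. Some of these genes are not reported here. The members and lists were chosen with earlier results of these data known.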

Additional observations from a re-analysis of the deposited data

Results flagged for a closer look

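The effect of IL-4c differed between elicited and resident cells by a test of the interaction for each of the 10 class II genes. On the log2 scale it was 3.46 for H2-Aa, 1.98 for H2-Ab1, 3.74 for H2-Eb1, 2.62 for Cd74, 2.53 for H2-DMa, 2.04 for H2-DMb1, 6.39 for H2-DMb2, 4.68 for H2-Oa, 3.06 for H2-Ob and 1.38 for Ciita. One array stood far from the others of its group: H2-DMa was at 2.34 in IL-4c 1, while the other 3 IL-4c arrays were within 2.53 to 2.57. That was 1 of 20 groups of 4 arrays looked at, and chance gives about 1 in 20.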

How the results depend on the processing

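The counts of members called in Thio+IL-4c versus Thio, in Thio+IL-4c versus IL-4c and in the interaction stayed within 8 to 9, 10 to 10 and 9 to 10 when single arrays were left out. In IL-4c versus PBS that range was 0 to 1 higher and 3 to 8 lower, with 8 without Thio 1 and 3 without PBS 1, PBS 3, IL-4c 1, IL-4c 2 or IL-4c 4. In Thio versus PBS it was 0 to 1 higher, the 1 coming without IL-4c 2 or without Thio 1. The number higher in IL-4c versus PBS was 1 with slide as a block, within 1 slide, with normexp, in the authors' table and with array weights. The number lower was 8 with slide as a block, which for IL-4c versus PBS is the same fit as without Thio 1, and 3 in the authors' table. Thio versus PBS had 2 higher and 3 lower with array weights. The cause was not tested.

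With replicate number as a block, 3 members were lower in IL-4c versus PBS, 8 were higher in Thio+IL-4c versus Thio and 9 were called in the interaction, Ciita being lost at 1.12 (limma adjusted p = 0.071) and 1.35 (limma adjusted p = 0.095).

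Signs turned for values that were not called in Thio versus PBS. With slide as a block and within 1 slide H2-Ab1 was at 0.32, H2-Eb1 at 0.24 and H2-Ob at -0.86. Quantile normalization gave 0.28 for H2-Ab1 and 0.098 for H2-Eb1, array weights -0.15 for H2-DMb1 and -0.23 for Cd74, and the mean of both probes -0.59 for H2-Ob. Leaving out single arrays gave -0.55 to 0.0056 for H2-Ab1, -0.38 to 0.066 for H2-Eb1, -0.079 to 0.29 for H2-DMb1 and -0.19 to 0.25 for Cd74, and for Ciita in IL-4c versus PBS -0.39 to 0.072. The median of all genes moved by over 0.1 with normexp, to -0.17 in IL-4c versus PBS and 0.11 in the interaction, and in the authors' table, to -0.43 in Thio+IL-4c versus IL-4c and -0.20 in the interaction. No member changed sign under normexp or in the authors' table. With slide as a block, where the sign changes above occurred, that median moved to 0.031 in Thio+IL-4c versus IL-4c, against -0.21 before, and to 0.044 in Thio versus PBS, against -0.089 before. Within 1 slide no value exists for Thio+IL-4c versus IL-4c or for the interaction. Every member value cleared background, but some lay near it. H2-DMb2 was at -5.22 in IL-4c 2, where the lowest signal well above background was at -6.45. Over all settings the interaction of H2-DMb2 ranged from 4.78 to 6.75 and that of H2-Oa from 3.63 to 5.10. When single arrays were left out, these ranges were 5.93 to 6.75 and 4.30 to 5.10. The part of background handling in these ranges was not tested.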
